A study of Homo sapiens with 6 samples.

Results

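The genes described here are NF-kappaB subunits and genes that NF-kappaB induces, among them its own inhibitors: BIRC2, BIRC3, TNFAIP3, NFKBIA, NFKBIE, RELB, NFKB1, NFKB2, ICAM1 and TRAF1. All 10 were found by their symbol among the 22604 genes counted. RNA-seq was done in SKNMC, an established Ewing sarcoma cell line driven by the EWS-FLI1 fusion, with 2 libraries in each of 3 groups. The groups carried a vector for V5-tagged NFIB that lacks its C-terminal intrinsically disordered region (NFIB-ΔIDR), a vector for V5-tagged full-length NFIB (NFIB-WT) or an empty vector. The cells had no other treatment. The paper describes its RNA-seq as biological duplicates, but no label ties the libraries to separate cultures, so the p values measure the spread between libraries. The methods describe lentiviral delivery with puromycin selection and do not say whether clones were picked.

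NF-kappaB factors are dimers of RELA, REL, RELB and the processed products of NFKB1 and NFKB2. IkappaB proteins such as NFKBIA and NFKBIE hold them in the cytoplasm until the IKK kinase complex marks the inhibitor for degradation, and the freed dimers then induce genes that shut the pathway off again. TNFAIP3 (A20), an enzyme that edits ubiquitin chains on receptor adaptors, is a central part of that feedback. BIRC2 and BIRC3 are ubiquitin ligases that act with TRAF adaptors at TNF receptors, TRAF1 is such an adaptor, and ICAM1 is a surface adhesion molecule induced by inflammatory cytokines.

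The promoters are shown because a match to the kappaB motif, the DNA letters that NF-kappaB dimers bind, is shared by TNFAIP3 and by members that did not pass the test between groups. Windows of 300 bases (250 before to 50 after the start) came from RefSeq on GRCh38.p14, were found for 8 of the 10 genes, and were placed on GRCh37 (hg19) by an exact match of the whole window. TNFAIP3 had 2 matches, NFKBIA had 1 and BIRC3 had 2, given here 5′ to 3′ along the gene with the kappaB matches in capitals.
TNFAIP3, chr6:138188146-138188445, plus strand: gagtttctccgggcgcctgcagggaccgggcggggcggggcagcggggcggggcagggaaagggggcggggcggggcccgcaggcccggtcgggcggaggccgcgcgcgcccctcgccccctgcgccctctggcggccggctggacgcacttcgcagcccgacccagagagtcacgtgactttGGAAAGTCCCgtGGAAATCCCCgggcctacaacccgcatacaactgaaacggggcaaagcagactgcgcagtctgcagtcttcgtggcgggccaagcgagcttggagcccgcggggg
NFKBIA, chr14:35873906-35874205, minus strand: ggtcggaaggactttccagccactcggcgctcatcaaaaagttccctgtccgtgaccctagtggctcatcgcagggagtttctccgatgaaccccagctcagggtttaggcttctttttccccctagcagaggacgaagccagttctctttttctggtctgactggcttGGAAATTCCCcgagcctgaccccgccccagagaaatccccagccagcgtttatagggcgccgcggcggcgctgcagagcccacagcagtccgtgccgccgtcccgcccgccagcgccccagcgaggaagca
BIRC3, chr11:102187965-102188264, plus strand: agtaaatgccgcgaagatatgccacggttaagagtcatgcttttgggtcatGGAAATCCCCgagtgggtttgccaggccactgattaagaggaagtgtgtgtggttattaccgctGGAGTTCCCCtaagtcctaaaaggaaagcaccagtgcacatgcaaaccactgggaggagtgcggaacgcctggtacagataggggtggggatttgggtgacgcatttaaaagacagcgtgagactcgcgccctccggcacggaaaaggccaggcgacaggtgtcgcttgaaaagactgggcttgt
The TNFAIP3 matches, GGAAAGTCCC and GGAAATCCCC, begin 67 and 55 bases before the start. GGAAATTCCC in NFKBIA begins 81 bases before it, and GGAAATCCCC and GGAGTTCCCC in BIRC3 begin 199 and 135 bases before it. NFKB1 holds GGGAATTTCC 49 bases before its start. A match on either strand was thus found in 4 of the 8 promoters, against 11.3% of 35116 promoters of the same length. BIRC2, NFKB2, ICAM1 and TRAF1 held none in this window, which says only that these letters are not there. TGGCA, letters that NFI proteins bind, was in the promoters of BIRC3 (2 matches), ICAM1 and TRAF1, and in 47.6% of all promoters, and no kappaB match overlapped it. The palindromic full NFI site was in none of the 8 (0.0285% of all promoters), and GGAAGGAA, a short form of the repeats bound by EWS-FLI1, was in NFKB2 alone of these genes (3.67% of all).

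The libraries held 6664231 to 8465572 counts, and 1 CPM stood for at least 6.67 counts, where CPM is a count scaled to a common library total with TMM factors. NFIB RNA was at 2227 and 2332 CPM with NFIB-ΔIDR and at 969 and 1051 CPM with NFIB-WT, against 176 and 145 CPM with the empty vector, and the groups did not overlap. NFIB RNA was also higher with NFIB-ΔIDR than with NFIB-WT, by 1.17 on the log2 scale (SE 0.10, adjusted p = 0.000191 in edgeR's quasi-likelihood test), so between the constructs the amount of NFIB RNA and the missing region cannot be told apart. The NFIB-WT libraries differed from each other more than the other pairs did. The spread within a pair, as chi-square per degree of freedom against counting error, was 9.37 for NFIB-WT. It was 1.63 for NFIB-ΔIDR and 1.84 for the empty vector. The SD of the log2 difference within a pair was 0.28 for NFIB-ΔIDR, 0.38 for NFIB-WT and 0.28 for the empty vector over 13501 genes, and edgeR's fit used a single estimate of the spread from the 3 pairs. All 9 Ewing sarcoma markers found passed the expression filter, and they summed to 2488 to 2505 CPM with NFIB-ΔIDR, 3023 to 3144 CPM with NFIB-WT and 2628 to 2646 CPM with the empty vector. They did not move together: between the constructs STEAP1 was higher with NFIB-ΔIDR (0.34 on the log2 scale, edgeR adjusted p = 0.0258) and CCND1, NPY1R and LIPI were lower, and NPY1R and LIPI were higher with NFIB-WT relative to the empty vector. Of all genes tested, 10.7% passed between the constructs and 0.615% with NFIB-WT relative to the empty vector. Of 8 immune cell markers, CD3E had 2 and CD14 had 4 counts over the 6 libraries, whereas PTPRC was at 282 and 312 CPM with NFIB-ΔIDR, 274 and 251 CPM with NFIB-WT and 257 and 257 CPM with the empty vector.

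NFKBIA, BIRC2 and NFKB1 made up 30.8%, 48.7% and 12.3% of the summed CPM of the 10 genes, and the other 7 were rare in every group. Levels of different genes are compared per kb of the gene length deposited with the counts, and their order depends on that length. NFKBIA has 1567 deposited bases and 3394 bases of exons in GENCODE v44, BIRC2 4265 and 4517, NFKB1 4355 and 15679, and TNFAIP3 4738 and 6443. By the GENCODE lengths BIRC2 was above NFKBIA in each group. With NFIB-ΔIDR, NFKBIA was at 34.5 ± 0.233 CPM per kb (SD, n = 2), BIRC2 at 17.9 ± 0.633 and NFKB1 at 4.18 ± 0.372. With NFIB-WT they were at 28.5 ± 1.62, 18.2 ± 0.581 and 4.76 ± 0.253 CPM per kb, and with the empty vector at 29.5 ± 1.26, 17.6 ± 0.383 and 4.32 ± 0.137. Among the 13501 genes tested, NFKBIA lay at the 80.6th percentile of the level per kb with the empty vector, BIRC2 at the 69.5th and NFKB1 at the 37.6th. Next in the empty vector came NFKBIE (0.810 ± 0.0985), TNFAIP3 (0.711 ± 0.0283), NFKB2 (0.536 ± 0.112), RELB (0.473 ± 0.0745) and BIRC3 (0.168 ± 0.0418), all in CPM per kb and under the 10th percentile where tested. NFKB2 and RELB overlapped there, and so did ICAM1 and TRAF1 at the bottom. With NFIB-ΔIDR, TNFAIP3 was the fourth of the 10 at 1.52 ± 0.367 CPM per kb, above NFKBIE at 1.04 ± 0.142. By the GENCODE lengths the libraries of TNFAIP3 and NFKBIE overlapped there. With NFIB-WT and the deposited lengths, TNFAIP3 was the fifth at 0.681 ± 0.156, below NFKBIE at 1.20 ± 0.213 and overlapping NFKB2 at 0.525 ± 0.196.

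**Figure D1:**
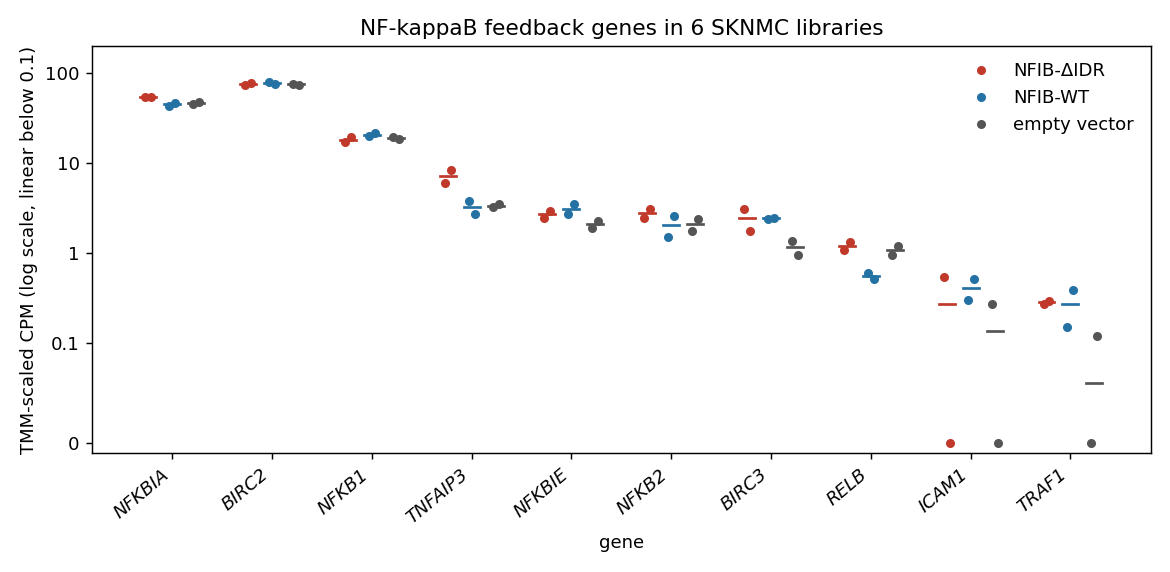
TMM-scaled CPM (log scale, linear below 0.1) of the 10 genes with NFIB-ΔIDR, NFIB-WT and the empty vector, with each library drawn as a point (2 a group) and each group mean as a bar. The TNFAIP3 points with NFIB-ΔIDR, at 5.95 and 8.41 CPM, lie above the other 4 libraries, and NFKBIA, BIRC2 and NFKB1 are the 3 genes above 10 CPM.

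TNFAIP3 was the member that differed between the constructs. It was at 5.95 and 8.41 CPM with NFIB-ΔIDR (44 and 57 counts), at 3.75 and 2.70 CPM with NFIB-WT (25 and 21 counts) and at 3.28 and 3.47 CPM with the empty vector (24 and 29 counts). Both NFIB-ΔIDR libraries were above the other 4, while the NFIB-WT libraries lay on either side of those of the empty vector. TNFAIP3 was higher with NFIB-ΔIDR than with NFIB-WT (log2 fold change 1.16, SE 0.27, 95% interval 0.56 to 1.76, adjusted p = 0.0236 in edgeR's quasi-likelihood test with Benjamini-Hochberg adjustment). Against the empty vector, its log2 fold change with NFIB-ΔIDR was 1.08 (SE 0.26, interval 0.50 to 1.66, unadjusted p = 0.00186), which did not pass after adjustment (adjusted p = 0.0962). With NFIB-WT against the empty vector it was -0.08 (SE 0.31, interval -0.76 to 0.60, adjusted p = 0.934). TNFAIP3 lies on chromosome 6 of hg19 from 138188351 to 138204451. The call between the constructs was lost without NFIB-ΔIDR replicate 1 (log2 fold change 1.39, adjusted p = 0.0727) and without replicate 2 (0.89, adjusted p = 0.220). DESeq2 gave 1.15 with an adjusted p of 0.127, and a fit of both construct groups alone gave 1.16 with an adjusted p of 0.0520. Against the empty vector, TNFAIP3 passed in edgeR with NFIB-ΔIDR in a fit of those 2 groups alone (adjusted p = 0.000697) and with no filter on low counts (adjusted p = 0.0032). Calls over all genes also rose in these fits, to 1883 and 550 from 88. Without NFIB-WT replicate 1 or 2, which are not part of this comparison, the log2 fold change of TNFAIP3 was 1.07 and 1.08.

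Some markers of other cell types also differed between the constructs, where 10.7% of all genes tested passed in edgeR. Their part in the results for TNFAIP3 and the other genes that passed was not tested. The summed level of 6 epithelial markers was 294 to 340 CPM with NFIB-ΔIDR, 185 to 264 CPM with NFIB-WT and 210 to 247 CPM with the empty vector. Of the 3 that were tested, KRT8 was higher with NFIB-ΔIDR than with NFIB-WT, while CDH1, which defines epithelia, had 9 counts over the 6 libraries. The 6 endothelial markers summed to 16.8 to 17.4 CPM with NFIB-ΔIDR, 10.7 to 10.8 CPM with NFIB-WT and 14.6 to 16.4 CPM with the empty vector. EMCN was higher with NFIB-ΔIDR than with NFIB-WT among the 3 tested, and PECAM1 had 6 counts in all. The 8 immune markers, nearly all of it PTPRC, summed to 292 to 325 CPM with NFIB-ΔIDR, 260 to 283 CPM with NFIB-WT and 266 to 267 CPM with the empty vector. In bulk RNA, fewer cells with a transcript and less of it per cell cannot be told apart.

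Of the 10 genes, 7 passed the expression filter. For NFIB-ΔIDR relative to the empty vector, 0 of the 7 were higher and 0 lower at an adjusted p under 0.05 in edgeR's test. Of all genes tested, 0.296% were higher and 0.356% lower (0.652% in all). In DESeq2 0 passed, but it gave no adjusted p for TNFAIP3 (unadjusted p = 0.0157 in DESeq2), BIRC3, NFKBIE and NFKB2, so these could not pass there. At an unadjusted p under 0.05 in edgeR, TNFAIP3, BIRC3 and NFKBIA were higher, making 3 of 7 against 7.77% of all genes, and 0 were lower against 7.42%. With NFIB-WT against the empty vector 0 of the 7 were higher and 0 lower in edgeR, against 0.452% and 0.163% of all genes (0.615% in all), and 0 passed in DESeq2. BIRC3 was the gene with an unadjusted p under 0.05 there, where 6.93% of all genes were higher and 6.42% lower. Between the constructs, 1 of the 7 was higher with NFIB-ΔIDR in edgeR, against 5.19% of all genes, and 0 were lower, against 5.52% (10.7% in all), and 0 passed in DESeq2. At an unadjusted p under 0.05, TNFAIP3 and NFKBIA were higher (13.6% of all genes) and 0 lower (13.9%). The libraries of the 2 groups did not overlap for 5 of the 7 genes with NFIB-ΔIDR against the empty vector, all higher with NFIB-ΔIDR, where 26.2% of all genes were separated in that direction, 27.1% in the other and 53.3% in either. They did not overlap for BIRC3, NFKBIE and NFKB1 with NFIB-WT against the empty vector, all higher with NFIB-WT (21.7% of all genes higher, 21.2% lower, 42.9% in either direction). Between the constructs TNFAIP3 and NFKBIA were separated with NFIB-ΔIDR higher (27.8% of all genes) and NFKB1 with NFIB-ΔIDR lower (27.6%, and 55.3% in either direction). The comparisons with the empty vector share its 2 libraries. RELB, ICAM1 and TRAF1 were below the filter and are given by their counts.

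**Figure D2:**
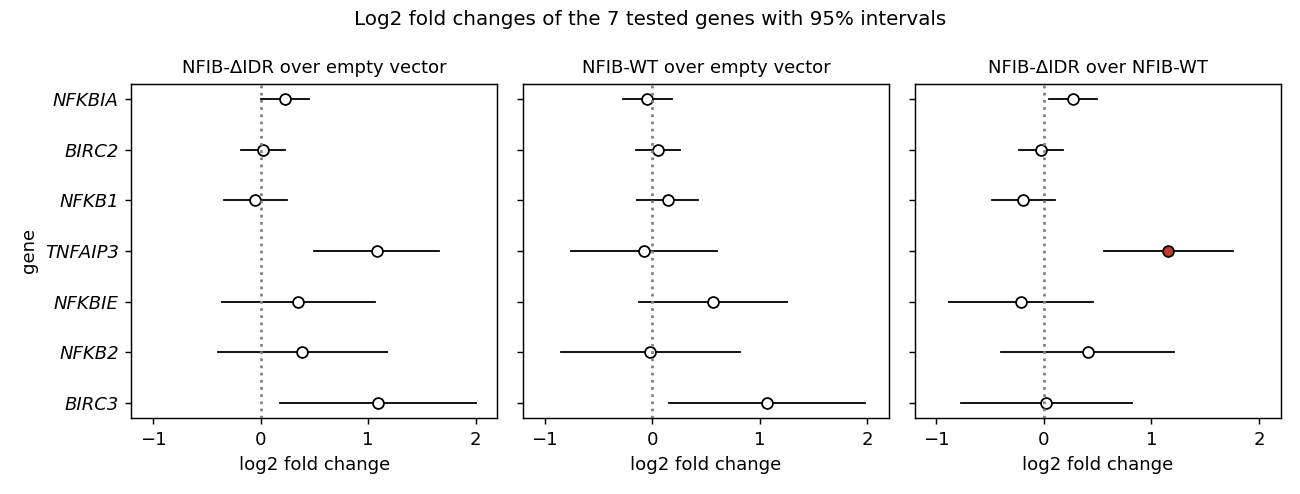
Log2 fold change (points) with its 95% interval (lines, unadjusted) for the 7 tested genes with NFIB-ΔIDR over the empty vector, NFIB-WT over the empty vector and NFIB-ΔIDR over NFIB-WT, from edgeR. The filled point, TNFAIP3 at 1.16 between the constructs, is the one with an adjusted p under 0.05, and the intervals of the abundant BIRC2 and NFKBIA are the narrowest.

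The IkappaB genes did not pass in any comparison. NFKBIA, an IkappaB that is resynthesised soon after activation, was at 54.3 and 53.7 CPM with NFIB-ΔIDR, at 42.9 and 46.5 CPM with NFIB-WT and at 44.8 and 47.6 CPM with the empty vector. Both NFIB-ΔIDR libraries were the highest of the 6. In edgeR its log2 fold change was 0.23 with NFIB-ΔIDR against the empty vector (SE 0.10, adjusted p = 0.324) and 0.27 against NFIB-WT (SE 0.10, interval 0.05 to 0.50, adjusted p = 0.117). Without NFIB-WT replicate 2 the difference of NFKBIA between the constructs was 0.33. NFKBIE, which encodes IkappaB-epsilon, was at 2.44 and 2.95 CPM with NFIB-ΔIDR, 2.70 and 3.48 CPM with NFIB-WT and 1.91 and 2.27 CPM with the empty vector. Each construct library was above both empty vector libraries, yet the log2 fold changes of 0.35 with NFIB-ΔIDR (SE 0.32, adjusted p = 0.672) and 0.56 with NFIB-WT (SE 0.31, interval -0.12 to 1.25, adjusted p = 0.454) were within the error of 14 to 27 counts a library. NFKBIA lies on chromosome 14 from 35870285 to 35873955 and NFKBIE on chromosome 6 from 44225903 to 44233525.

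BIRC2 and BIRC3, neighbouring paralogs on chromosome 11 that lie 7807 bases apart, differed in level. BIRC2 spans 102217942 to 102249401 and BIRC3 spans 102188215 to 102210134, both on the plus strand. BIRC2 was at 74.3 and 78.1 CPM with NFIB-ΔIDR, 79.5 and 76.0 CPM with NFIB-WT and 76.2 and 73.8 CPM with the empty vector. The 3 groups overlapped, and the 95% intervals kept its log2 fold change between -0.18 and 0.23 with NFIB-ΔIDR and between -0.15 and 0.26 with NFIB-WT, both against the empty vector. BIRC3, which NF-kappaB induces, was at 3.11 and 1.77 CPM with NFIB-ΔIDR (23 and 12 counts), 2.3997 and 2.45 CPM with NFIB-WT (16 and 19 counts) and 1.36 and 0.956 CPM with the empty vector (10 and 8 counts). All 4 construct libraries were above those of the empty vector. The log2 fold changes of 1.09 with NFIB-ΔIDR (SE 0.41, unadjusted p = 0.0233) and 1.07 with NFIB-WT (SE 0.41, unadjusted p = 0.0259) did not pass after adjustment (adjusted p = 0.244 and 0.305 from edgeR). Between the constructs it was 0.02 (interval -0.77 to 0.82), too wide to say that they act alike. Per kb, BIRC2 was 61.6-fold BIRC3 over the 6 libraries. The sources used here do not state how reads that map to both paralogs were counted.

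NFKB1 and NFKB2 did not pass in any comparison. NFKB1, the precursor of p50, was at 17.0 and 19.3 CPM with NFIB-ΔIDR, 19.9 and 21.5 CPM with NFIB-WT and 19.2 and 18.4 CPM with the empty vector. Its NFIB-ΔIDR libraries overlapped those of the empty vector, and its log2 fold change of -0.19 between the constructs (SE 0.13, interval -0.49 to 0.10) was within the error. NFKB2, the precursor of p52 and the subunit of the noncanonical pathway, was at 2.44 and 3.10 CPM with NFIB-ΔIDR, 1.4998 and 2.58 CPM with NFIB-WT and 1.77 and 2.39 CPM with the empty vector. The log2 fold changes of NFKB2 were 0.39 with NFIB-ΔIDR against the empty vector (interval -0.40 to 1.17), -0.02 with NFIB-WT against it (-0.85 to 0.81) and 0.41 between the constructs (-0.39 to 1.21). RELB, the partner of p52, was below the expression filter with 8 and 9 counts with NFIB-ΔIDR, 4 and 4 with NFIB-WT and 7 and 10 with the empty vector. Its NFIB-WT libraries were the lowest. Pooled over each pair, RELB was at 1.20 CPM with NFIB-ΔIDR (exact Poisson 95% interval 0.699 to 1.92), 0.554 CPM with NFIB-WT (0.239 to 1.09) and 1.08 CPM with the empty vector (0.631 to 1.73), and these intervals, which cover counting error only, overlap. NFKB1 lies on chromosome 4 from 103422487 to 103538459, NFKB2 on chromosome 10 from 104153867 to 104162281 and RELB on chromosome 19 from 45504719 to 45541450.

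ICAM1 and TRAF1 were near the detection limit, where 3 counts stand for 0.358 to 0.450 CPM in a library. ICAM1 had 4 and 0 counts with NFIB-ΔIDR, 2 and 4 with NFIB-WT and 2 and 0 with the empty vector. TRAF1 had 2 and 2 counts with NFIB-ΔIDR, 1 and 3 with NFIB-WT and 0 and 1 with the empty vector. Both were below the expression filter, so no difference between groups was tested for either gene. Their pooled levels were 0.282, 0.416 and 0.127 CPM for ICAM1 and 0.282, 0.277 and 0.0637 CPM for TRAF1 in the NFIB-ΔIDR, NFIB-WT and empty vector libraries. ICAM1 lies on chromosome 19 from 10381769 to 10397291 and TRAF1 on chromosome 9 from 123664671 to 123691451.

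Other genes of the pathway were looked up from 6 lists of 88 genes, of which 79 were found by symbol and 52 were tested. With NFIB-ΔIDR or NFIB-WT against the empty vector, 0 of the 52 passed in either direction in edgeR's test. At an unadjusted p under 0.05, 6 were higher and 1 lower with NFIB-ΔIDR, against 7.77% and 7.42% of all genes, and 1 was higher and 1 lower with NFIB-WT, against 6.93% and 6.42%. DESeq2 called 0 in both comparisons, but it gave no adjusted p for some rare genes, among them CXCL8, which could not pass there. Without NFIB-WT replicate 1 or 2, more of these genes passed in each comparison, and so did more of all genes tested. Those fits leave a single NFIB-WT library, so their calls are not read as results about these genes. Between the constructs 3 were higher and 1 was lower with NFIB-ΔIDR (5.19% and 5.52% of all genes), and the median log2 fold change of the 52 was 0.02 next to 0.00 over all genes.

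CXCL8, a neutrophil chemokine and a classic NF-kappaB target, was at 2.30 and 3.40 CPM with NFIB-ΔIDR (17 and 23 counts), 0.750 and 0.386 CPM with NFIB-WT (5 and 3 counts) and 0.682 and 0.956 CPM with the empty vector (5 and 8 counts). Like TNFAIP3, its NFIB-ΔIDR libraries were the highest of the 6, and its log2 fold change between the constructs was 2.32 (SE 0.48, adjusted p = 0.0141). SOD2, the mitochondrial superoxide dismutase that NF-kappaB also induces, was at 66.8 and 68.6 CPM with NFIB-ΔIDR, 49.94 and 49.97 CPM with NFIB-WT and 49.3 and 52.6 CPM with the empty vector. Its log2 fold change between the constructs was 0.44 (SE 0.10, adjusted p = 0.0190), and with NFIB-WT against the empty vector it was -0.03 (interval -0.25 to 0.19). They were 2 of 8 tested genes on the list of other induced targets, where 5.19% of all genes were higher, and 0 were lower, where 5.52% of all genes were. VCAM1, an adhesion molecule of the same list, was at 30.4 CPM with NFIB-ΔIDR, 30.2 CPM with NFIB-WT and 35.7 CPM with the empty vector on average.

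IRAK1, a kinase of the Toll-like and interleukin-1 receptor pathways, was at 30.8 and 33.7 CPM with NFIB-ΔIDR, 18.1 and 24.6 CPM with NFIB-WT and 18.4 and 20.8 CPM with the empty vector (log2 fold change between the constructs 0.58, SE 0.15, adjusted p = 0.0343). TRAF5, an adaptor of TNF receptors, was lower with NFIB-ΔIDR, at 10.0 and 9.30 CPM, against 16.0 and 16.6 CPM with NFIB-WT, and its empty vector libraries lay between them at 13.1 and 13.9 CPM. The difference between the constructs in TRAF5 was -0.76 on the log2 scale (SE 0.15, edgeR adjusted p = 0.0112). These were the 2 of 20 tested IKK kinases and adaptors that passed, next to 10.7% of all genes. In the same comparison 0 of 5 further subunits and IkappaB proteins, 0 of 9 further feedback inhibitors, 0 of 9 receptors and 0 of 1 ligand passed in edgeR. At an unadjusted p under 0.05, RELA and NFKBIB were higher in the first of these lists, 1 of the inhibitors was higher and 2 lower, 1 receptor was higher and 1 lower, and 0 ligands passed, where 13.6% of all genes were higher and 13.9% lower. CXCL8, SOD2, IRAK1 and TRAF5 each lost the call between the constructs in DESeq2 (adjusted p = 0.0908, 0.0796, 0.110 and 0.0765) and without NFIB-ΔIDR replicate 1 (0.0728, 0.144, 0.156 and 0.0950) or replicate 2 (0.157, 0.183, 0.256 and 0.124). SOD2 and IRAK1 also lost it without empty vector replicate 1 (0.0563 and 0.0680) or replicate 2 (0.0559 and 0.0678) and in a fit of both construct groups alone (0.0537 and 0.0713). With NFIB-ΔIDR against the empty vector these genes did not pass, with edgeR's adjusted p of 0.0962 for CXCL8, 0.0867 for SOD2, 0.0667 for IRAK1 and 0.170 for TRAF5. Without NFIB-WT replicate 1 or replicate 2, their log2 fold changes there were 1.75, 0.41, 0.71 and -0.48 in either fit. Calls over all genes rose in those fits, so no call from them is given for these genes.

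**Figure D3:**
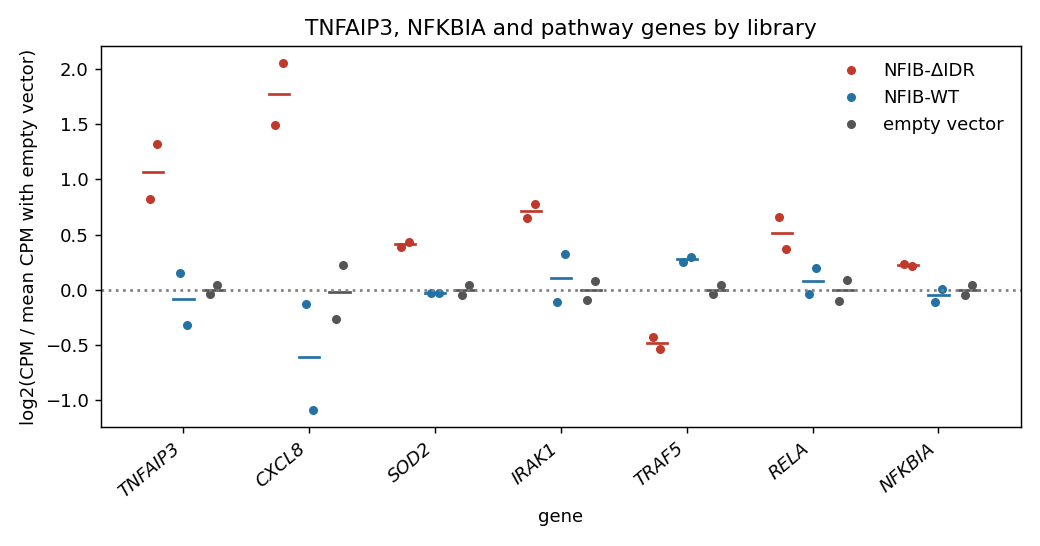
CPM of each library over the empty vector mean, as a log2 ratio, for TNFAIP3, 5 other genes of the pathway and NFKBIA, with NFIB-ΔIDR, NFIB-WT and the empty vector as points and their means as bars. NFIB-ΔIDR points are the highest for TNFAIP3, CXCL8, SOD2, IRAK1, RELA and NFKBIA and the lowest for TRAF5, of which RELA and NFKBIA did not pass between the constructs.

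RELA, the main activating subunit, was at 19.6 and 16.1 CPM with NFIB-ΔIDR, 12.1 and 14.3 CPM with NFIB-WT and 11.6 and 13.3 CPM with the empty vector. Relative to the empty vector, its log2 fold change of 0.52 with NFIB-ΔIDR (SE 0.16, edgeR adjusted p = 0.165) did not pass, and neither did that of 0.43 relative to NFIB-WT (SE 0.16, adjusted p = 0.116). Without NFIB-WT replicate 1 or 2, the log2 fold change of RELA with NFIB-ΔIDR against the empty vector was 0.52 in either fit. Between the constructs it was 0.56 without NFIB-WT replicate 2. REL averaged 55.3 CPM with NFIB-ΔIDR, 49.6 CPM with NFIB-WT and 57.2 CPM with the empty vector. The NFIB-WT libraries of REL were apart, at 55.3 and 43.8 CPM. Its log2 fold change with NFIB-WT against the empty vector was -0.21 (SE 0.13, edgeR adjusted p = 0.499). With a library left out it ran from -0.38 to -0.04. Between the constructs REL was at 0.16 (SE 0.13, edgeR adjusted p = 0.452), and at -0.0015 to 0.34 with a library left out. The IKK subunits CHUK and IKBKB averaged 75.0 and 71.2 CPM with NFIB-ΔIDR, 71.4 and 73.4 CPM with NFIB-WT and 73.6 and 80.2 CPM with the empty vector, and the 95% intervals of their log2 fold changes against the empty vector stayed within -0.39 and 0.26. IKBKG, the regulatory IKK subunit, averaged 3.65, 3.21 and 4.13 CPM in the NFIB-ΔIDR, NFIB-WT and empty vector libraries. MAP3K14, the kinase of the noncanonical pathway, averaged 2.13, 1.32 and 2.41 CPM in the same groups (NFIB-WT against the empty vector -0.84, interval -1.78 to 0.11, adjusted p = 0.419). TNFRSF1A, the main TNF receptor, averaged 28.1, 29.4 and 25.1 CPM. Its log2 fold change with NFIB-WT relative to the empty vector was 0.22 (SE 0.13, edgeR adjusted p = 0.475). With a library left out it ran from 0.07 to 0.37. TNF itself was looked up and was not found by its symbol among the genes counted. The ligand IL1A had 25 counts and IL6 had 7 over the 6 libraries.

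Among 9016 other genes with a mean of at least 10 CPM, NAV3, TP63 and ZNF808 had the log2 CPM values most like those of TNFAIP3 over the 6 libraries, each centred on its own mean (Euclidean distances 0.24, 0.39 and 0.39, where TNFAIP3 lies 1.30 from a flat pattern). NAV3 averaged 18.5 CPM with NFIB-ΔIDR, 8.08 CPM with NFIB-WT and 9.26 CPM with the empty vector. TP63 averaged 37.5 CPM with NFIB-ΔIDR, 17.9 CPM with NFIB-WT and 16.9 CPM with the empty vector. ZNF808 averaged 22.6 CPM with NFIB-ΔIDR, 9.22 CPM with NFIB-WT and 11.6 CPM with the empty vector. With 2 libraries a group, the likeness describes these 6 libraries.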

How the data were processed

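RNA from SKNMC cells was made into libraries with the CORALL total RNA kit. The authors aligned reads to hg19 with STAR 2.4.0h and counted them per gene with featureCounts, after CASAVA 2.19, per the submitters' processing notes. The deposited values are raw counts that were not normalized. The sources used here do not state the strand setting, the handling of multi-mapping reads or the use of molecular identifiers.

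Low genes were removed by filterByExpr with a minimum count of 10 and a minimum total of 15. Library sizes were scaled by TMM. All 6 libraries entered 1 model with the group as the only term, and differences were tested with edgeR 4.0.16 (R 4.3.3, quasi-likelihood) with Benjamini-Hochberg adjustment over 13501 genes. The steps were tested on data simulated with the same spread of a gene in every group. This does not cover the wider spread of the NFIB-WT pair. SE is the absolute log2 fold change over the square root of F. As alternatives, DESeq2 (version 1.42.0 here), the thresholds of the study (a fold of 1.5 and an unadjusted p under 0.05), other scalings, filters and fits and each library left out were run. The gene lists and the genes named beside the members (those that passed, 8 core genes and the 3 genes nearest in pattern to a member that passed) were set by rule, but members and lists were chosen with earlier results of these data known. Of the Ewing sarcoma, immune, endothelial and epithelial marker lists, 9, 8, 6 and 6 genes were found. Gene positions are those of GENCODE v44 lifted to hg19. No exon of a member overlaps another counted gene. Figures used matplotlib 3.10.9.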

Additional observations from a re-analysis of the deposited data

Results flagged for a closer look

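TNFAIP3 is set out again because the effects of the constructs on it differed in a direct test. Its log2 fold change with NFIB-ΔIDR against NFIB-WT was 1.16 (edgeR, adjusted p = 0.0236), with both NFIB-ΔIDR libraries above both NFIB-WT libraries. Of all genes tested, 5.19% passed as higher and 27.8% were separated in that direction. TNFAIP3 did not pass in DESeq2 (adjusted p = 0.127) or in edgeR's fit of both construct groups alone (adjusted p = 0.0520). Without NFIB-ΔIDR replicate 1 or 2 its log2 fold change was 1.39 and 0.89. The other 6 tested members did not pass in this comparison. With 2 libraries a group, no library could be tested as standing apart from its group.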

How the results depend on the processing

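The count of members that passed moved with the settings. With NFIB-ΔIDR against the empty vector it was 0, and 1 (TNFAIP3) with no filter on low counts, in a fit of the 2 groups alone and at a fold of 1.5 and an unadjusted p under 0.05 in DESeq2, and 2 at those thresholds in edgeR. It was 0 to 1 when each library was left out. With NFIB-WT against the empty vector it was 0, and 1 (BIRC3) at those thresholds in edgeR. Between the constructs it was 1, and 0 in DESeq2 and in a fit of the 2 groups alone, and 0 to 2 when each library was left out. Of the other pathway genes, 0 passed with NFIB-ΔIDR against the empty vector, and 4 with no filter, 7 in a fit of the 2 groups and 0 to 8 with a library left out. With NFIB-WT against it 0 passed, and 0 to 6 with a library left out. Between the constructs 4 passed, and 0 in DESeq2, 2 in a fit of the 2 groups and 0 to 12 with a library left out. Genes that passed overall moved more. With NFIB-ΔIDR against the empty vector there were 88, and 550 with no filter, 1883 in a fit of the 2 groups, 241 with the replicate block, 644 and 301 at the fold and unadjusted p thresholds in edgeR and DESeq2, and 4 to 1853 with a library left out. With NFIB-WT against the empty vector there were 83, and in the same order 541, 13, 188, 524 and 251, and 9 to 3051 with a library left out. Between the constructs there were 1446, and 725 in DESeq2, 2280 with no filter, 680 in a fit of the 2 groups, 935 at the thresholds in DESeq2 and 109 to 4405 with a library left out. The cause of these shifts was not tested.

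Between the constructs, the differences of TNFAIP3, CXCL8, SOD2, IRAK1 and TRAF5 that passed with all 6 libraries kept their sign in every setting. Others did not keep theirs. IL1RAP, on the receptor list, did not pass with all 6 libraries. Its log2 fold change with NFIB-WT against the empty vector was -0.23 without NFIB-WT replicate 1 and 0.20 without replicate 2. The replicate block changed no call of a member (TNFAIP3 between the constructs 1.16, adjusted p = 0.0172). Among the other pathway genes it added IRAK1 with NFIB-ΔIDR against the empty vector (0.72, adjusted p = 0.0187) and TANK and RIPK1 between the constructs (adjusted p = 0.0452 and 0.0408). The libraries share only a number: the correlations of their deviations between groups were 0.05, 0.02 and 0.15. Scalings moved the median over all genes by less than 0.1. Depth limits the rare members: BIRC3, NFKBIE and NFKB2 had 8 to 27 counts a library, and the intervals of their log2 fold changes span more than 1 unit.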
